A study of Mus musculus with 13 samples.

Results

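A set of 10 genes with different functions were present in some libraries of aged mouse tissue and nearly absent from others of the same tissue and genotype. The 10 genes (Degs1, Abcc9, Cited2, Sdhaf2, Mndal, Aebp2, Ppfibp1, Mocs2, Mcfd2 and Nudt22) were chosen by their own counts, from 19838 genes in all. The rule asked for a gap of at least 3 log2 CPM between libraries in aorta and again in muscle. CPM is the count of a gene scaled to the gene counts of its library (counts per 1e6), and log2 CPM was taken with a prior count of 2. The gap is the widest step between neighbouring libraries once those of a tissue are sorted by level. Libraries above it are called on here and those below it off, so the gaps and states describe the choice and were not tested.

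The study profiled aorta and gastrocnemius muscle, a calf muscle, of mice aged 88 weeks on a mixed FVBxC57BL/6 background. Controls, labelled Rosa26, had the genotype GFP-FOXM1dNdK-/-Rosa26-rtTAtg/+ (4 aorta and 4 muscle libraries). The other genotype, labelled dNdK, was GFP-FOXM1dNdKtg/+Rosa26-rtTAtg/+ (2 aorta and 3 muscle libraries). FOXM1 is a transcription factor of the dividing cell, and all groups shared the Rosa26-rtTA allele, which encodes a doxycycline-controlled transactivator. Sex, doxycycline, sequencing run and the share of each strain in an animal are not given in the labels. Nothing says whether a library came from an animal of its own, so p-values measure the spread between these libraries.

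The panel amplified a short stretch of each targeted transcript with primers based on the GRCm38/mm10 build, a C57BL/6J sequence. A count is therefore a count of amplicon reads, and the loss of a transcript and the failure of its amplicon cannot be told apart in these data. FVB and C57BL/6 are inbred strains that differ at many sites. Among known differences, C57BL/6 carries haplotype b and FVB haplotype q of the H2 complex on chromosome 17. FVB carries a null allele of Hc, which encodes complement C5. The cluster of interferon-inducible p200 genes on chromosome 1 differs in gene content between inbred strains. In mice of mixed background, stretches of a chromosome pass to offspring together, so neighbouring loci tend to carry alleles of the same strain.

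Each deposited name ends in a number, and 9 different numbers occur over the 13 libraries. The labels do not say what it stands for. Numbers 30, 50 and 53 (Rosa26) and 142 (dNdK) occur in both tissues. Numbers 54 (Rosa26) and 222 (dNdK) occur in aorta alone, and 61 (Rosa26), 52 and 66 (dNdK) in muscle alone. Libraries are named by this number below. By the titles, number 30 is Rosa26 4 in both tissues, number 50 is aorta Rosa26 3 and muscle Rosa26 1, and number 53 is aorta Rosa26 1 and muscle Rosa26 3. Number 142 is aorta dNdK 1 and muscle dNdK 3.

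Depth was 3919526 to 13683952 gene counts per library, and the detection floor used here, 3 counts, came to between 0.219 and 0.765 CPM. Floors cover counting error only, and the reads carry no molecular identifiers. Foxm1 had 2 to 24 counts in aorta and 0 to 3 in muscle, and the labels do not say whether its amplicon reads the transgene. Marker genes of other tissue varied between libraries of a tissue. In aorta, 5 markers of brown and white fat summed to 7760 to 12300 CPM and 7 of vessel wall to 309 to 689 CPM. The summed level of 5 heart muscle markers ran from 2.04 to 3000 CPM in aorta, with 3000, 1330 and 2650 CPM in the aorta libraries numbered 53, 54 and 222 and at most 14.1 CPM in the other 3. In muscle the fat markers summed to 1760 CPM in number 142 and to 9.13 to 46.0 CPM in the other 6 libraries. The part of these markers in the states below was not tested.

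Promoter sequences of 7 of the genes are shown because these genes shared their states as a set of 3 on chromosome 6 and pairs on chromosomes 1 and 19. Each runs from 250 bases before to 50 after an annotated start, read 5′ to 3′ on the strand of the gene, from RefSeq on GRCm38.p6. Capitals mark matches on either strand to any of 3 core promoter motifs. The GC box was searched as GGGCGG. The CCAAT box was searched by the letters of its name. The TATA box was searched as TATAAA, which none of these 7 windows held.
Aebp2 chr6:140622413-140622712, plus strand: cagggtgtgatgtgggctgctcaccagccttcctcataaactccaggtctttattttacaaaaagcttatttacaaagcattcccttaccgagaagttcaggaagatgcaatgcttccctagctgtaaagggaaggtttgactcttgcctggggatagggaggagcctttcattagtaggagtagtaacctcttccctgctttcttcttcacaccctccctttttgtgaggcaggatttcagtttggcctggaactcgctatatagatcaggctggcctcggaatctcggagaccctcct
Abcc9 chr6:142702225-142702524, minus strand: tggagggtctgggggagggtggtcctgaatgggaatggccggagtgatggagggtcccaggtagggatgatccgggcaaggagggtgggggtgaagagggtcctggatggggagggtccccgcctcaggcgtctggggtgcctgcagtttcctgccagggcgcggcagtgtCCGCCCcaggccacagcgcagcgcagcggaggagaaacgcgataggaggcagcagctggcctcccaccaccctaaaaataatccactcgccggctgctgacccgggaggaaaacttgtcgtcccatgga
Ppfibp1 chr6:146888244-146888543, plus strand: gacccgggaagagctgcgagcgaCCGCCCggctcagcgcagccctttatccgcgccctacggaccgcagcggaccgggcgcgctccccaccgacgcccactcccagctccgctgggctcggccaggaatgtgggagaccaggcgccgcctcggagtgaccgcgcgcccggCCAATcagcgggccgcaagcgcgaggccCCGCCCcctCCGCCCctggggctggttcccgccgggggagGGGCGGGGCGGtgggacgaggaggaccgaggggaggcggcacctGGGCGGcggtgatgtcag
Mndal chr1:173880138-173880437, minus strand: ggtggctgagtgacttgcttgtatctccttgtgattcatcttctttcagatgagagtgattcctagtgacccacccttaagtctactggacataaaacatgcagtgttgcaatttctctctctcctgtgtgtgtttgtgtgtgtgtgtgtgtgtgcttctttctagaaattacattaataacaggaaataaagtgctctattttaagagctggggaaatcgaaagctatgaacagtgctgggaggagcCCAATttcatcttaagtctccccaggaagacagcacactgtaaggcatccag
Degs1 chr1:182282146-182282445, minus strand: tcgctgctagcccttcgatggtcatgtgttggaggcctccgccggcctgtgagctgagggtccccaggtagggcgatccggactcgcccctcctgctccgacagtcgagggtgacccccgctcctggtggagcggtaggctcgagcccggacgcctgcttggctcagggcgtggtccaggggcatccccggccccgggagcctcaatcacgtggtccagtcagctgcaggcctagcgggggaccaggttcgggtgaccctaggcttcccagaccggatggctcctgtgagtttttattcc
Nudt22 chr19:6995988-6996287, minus strand: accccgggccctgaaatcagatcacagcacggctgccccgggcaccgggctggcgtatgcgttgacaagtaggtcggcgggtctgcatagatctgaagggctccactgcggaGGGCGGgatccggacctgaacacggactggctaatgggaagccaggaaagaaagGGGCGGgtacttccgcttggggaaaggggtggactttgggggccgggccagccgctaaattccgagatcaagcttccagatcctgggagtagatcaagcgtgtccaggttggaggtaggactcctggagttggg
Sdhaf2 chr19:10525160-10525459, minus strand: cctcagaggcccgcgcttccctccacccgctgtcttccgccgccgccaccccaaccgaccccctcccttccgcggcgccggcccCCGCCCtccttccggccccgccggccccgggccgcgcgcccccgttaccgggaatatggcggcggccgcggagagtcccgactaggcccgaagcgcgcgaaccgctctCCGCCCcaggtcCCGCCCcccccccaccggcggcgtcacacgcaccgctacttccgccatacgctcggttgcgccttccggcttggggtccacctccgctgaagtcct
The GC box was found in 4 of the 7 windows. Nudt22 held 2 and Sdhaf2 held 3, so both genes of that pair had it. Ppfibp1 held 6 GC boxes, 1 pair of which overlapped, and 1 CCAAT box, and Abcc9 held 1 GC box. Aebp2, which has 3 windows in the RefSeq table, of which the one nearest its annotated gene start was used, held no match to any of these motifs, and neither did Degs1. Mndal, with 2 windows in the table, held 1 CCAAT box. GC content was 77.3% in Ppfibp1, 65.7% in Abcc9, 48.0% in Aebp2, 67.3% in Degs1, 43.0% in Mndal, 61.7% in Nudt22 and 76.7% in Sdhaf2. Over the 32851 windows of the table the median was 52.7%, and 35.7% held a GC box, 37.4% a CCAAT box and 13.6% a TATA box. A match describes the letters only.

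Across all 10 genes, 9 met the rule under the settings used here and Cited2 did not. Over all genes 21 of 19838 (0.106%) met it, and this share only describes the choice. Cited2 had a gap of 2.94 log2 CPM in aorta and 5.71 in muscle, and its aorta gap was 3.38 with a prior count of 0.5, 2.39 with a prior count of 5, and 1.81 and 2.70 with the single-strand columns. With each of the last 3 settings 8 of the 10 genes met the rule. Other genes just outside the threshold were Gpr157 (2.99 in aorta, 3.43 in muscle) and Plekha6 (3.57 and 2.98). Among genes just inside were Mzb1 (3.49 and 4.29) and Mkrn1 (3.52 and 3.62). The widest gaps among the 10 genes were those of Mocs2 in aorta (7.73) and Abcc9 in muscle (7.11). In the heat map of log2 CPM, levels form bright and dark cells with few between.

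**Figure D1:**
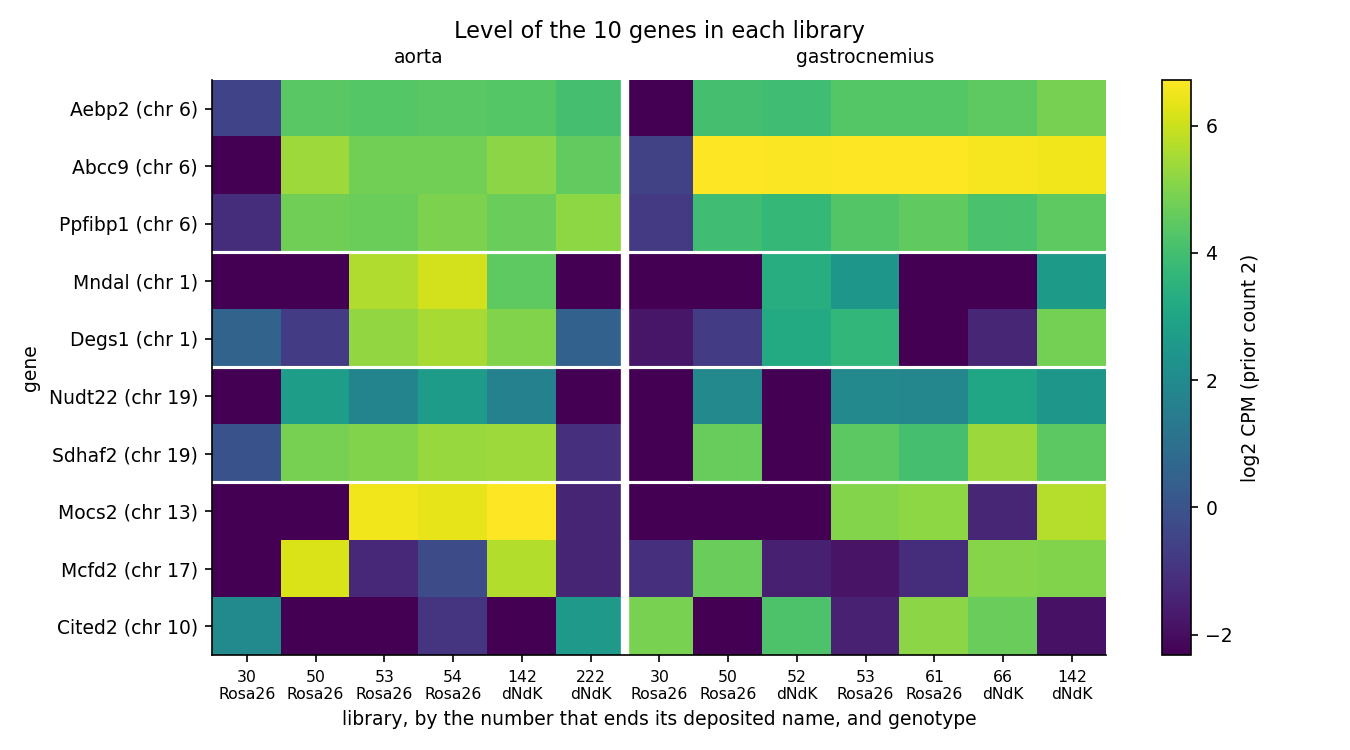
Heat map of log2 CPM (prior count 2, colour scale) of the 10 genes (vertical axis, with chromosome) in the 13 libraries (horizontal axis, by the number ending the deposited name and genotype; aorta left, gastrocnemius right). The 3 genes of chromosome 6 are dark in the libraries numbered 30 alone, and columns of the same number repeat the same pattern in both tissues.

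The 3 genes of chromosome 6 were nearly absent from both libraries numbered 30 and present in the other 11. Abcc9 encodes the sulphonylurea receptor SUR2, which joins a pore subunit to form an ATP-sensitive potassium channel of muscle and vessel. Its gene lies at chr6:142587862-142702766 (GRCm38.p6). In aorta Abcc9 stood at 0 CPM in number 30, against 27.5, 27.7 and 42.3 CPM in the Rosa26 libraries 53, 54 and 50 and 35.0 and 23.2 CPM in the dNdK libraries 142 and 222. In muscle it stood at 0.466 CPM (5 counts) in number 30. The other Rosa26 muscle libraries 50, 61 and 53 held 104, 103 and 105 CPM, and the dNdK libraries 52, 66 and 142 held 100, 96.2 and 91.7 CPM. The library off in muscle was not shallow: it held 10728698 gene counts, whereas the aorta library of that number was the shallowest of all.

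Aebp2, a DNA-binding cofactor of Polycomb repressive complex 2, lies at chr6:140622454-140678472. In aorta it had 2 counts (0.51 CPM) in number 30 and 16.3 to 21.0 CPM in the other 5 libraries. In muscle it had no count in number 30 and 15.3 to 28.8 CPM in the other 6. Ppfibp1, which encodes liprin-beta-1, a scaffold protein of cell adhesion sites, lies at chr6:146886609-147032025. It had 1 count (0.255 CPM) in aorta number 30 against 24.9 to 36.4 CPM in the other 5. In muscle it had 4 counts (0.373 CPM) in number 30 against 12.8 to 22.9 CPM in the other 6. Where these genes were on, the highest library exceeded the lowest by 1.29-fold for Aebp2, 1.46-fold for Ppfibp1 and 1.82-fold for Abcc9 in aorta. In muscle that spread was 1.88-fold, 1.79-fold and 1.15-fold.

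Genes around these 3 mostly kept their level. Kcnj8, which encodes the pore subunit that pairs with SUR2 in vessels, lies 16.2 kb from Abcc9. It stood at 31.4 CPM in aorta number 30 and 24.8 to 49.4 CPM over all aorta libraries. In muscle it stood at 11.5 CPM in number 30 and 10.2 to 18.5 CPM over all. Within 10 Mb of Abcc9, 64 other genes with a level were measured, and 0 of them stood 3 or more log2 CPM lower in number 30 than in the median of the other libraries in both tissues. Fam234b and Slc15a5 met that cut in aorta only, and Sspn in muscle only. Slc15a5 stood 6.87 log2 CPM above the median of the other libraries in muscle number 30, opposite to its aorta value of −8.37. Some genes were lower in both tissues without meeting the cut in both. Sspn stood at −2.64 in aorta and −3.39 in muscle, Fam234b at −3.53 and −1.84, and Arntl2, next to Ppfibp1, at −2.38 and −1.7. Over the 64 genes the median difference was −0.24 in aorta and −0.22 in muscle. The difference of Abcc9 was −7.12 in aorta and −7.25 in muscle, that of Aebp2 −4.83 and −6.65, and that of Ppfibp1 −5.89 and −5.02. The plot of the chromosome 6 window shows the 3 genes standing below a band of genes near 0.

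**Figure D2:**
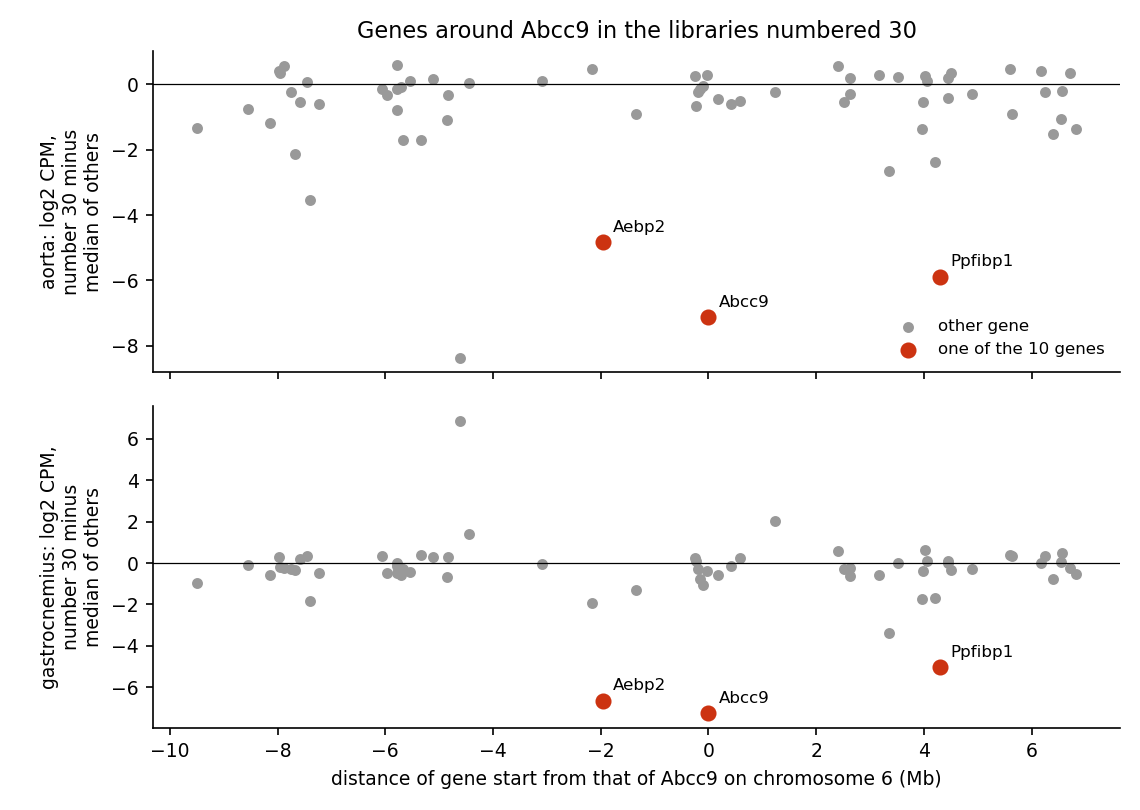
Difference in log2 CPM between the library numbered 30 and the median of the other libraries of its tissue (vertical axes; aorta above, gastrocnemius below) against the distance of each gene start from that of Abcc9 in Mb (horizontal axis). Each point is 1 gene with a mean of at least 1 CPM; red points are 3 of the 10 genes, all at −4.83 or lower in both tissues, while the median of the 64 grey points is −0.24 in aorta and −0.22 in muscle.

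On chromosome 1, Mndal and Degs1 were on in numbers 52, 53, 54 and 142 and off in the other 5 numbers. Mndal belongs to the interferon-inducible p200 family of nuclear DNA-binding proteins and lies at chr1:173857215-173880382. It had 0 counts in aorta numbers 50 and 30 (Rosa26) and 222 (dNdK), against 49.3 CPM in 53, 68.5 in 54 and 22.0 in 142. In muscle it had 0 counts in the Rosa26 libraries 50, 61 and 30 and the dNdK library 66. Mndal stood there at 5.33 CPM in 53, 9.72 in 52 and 5.85 in 142. Degs1 encodes dihydroceramide desaturase, which makes the last step of ceramide synthesis, and lies at chr1:182275964-182282854. In aorta it stood at 37.9, 46.6 and 31.5 CPM in 53, 54 and 142 and at 0.405 to 1.28 CPM (4 to 13 counts) in the other 3. In muscle it stood at 12.6, 9.13 and 28.3 CPM in 53, 52 and 142 and at 0 to 0.403 CPM (at most 3 counts) in the other 4. Degs1 was thus low but detected in all 3 aorta libraries called off, whereas Mndal had no count in any library called off.

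On chromosome 19, Nudt22 and Sdhaf2 were off in numbers 30, 52 and 222 and on in the other 6. Sdhaf2 encodes an assembly factor that helps attach flavin to succinate dehydrogenase, the enzyme that links the citric acid cycle to the respiratory chain. It lies at chr19:10500512-10525209. In aorta Sdhaf2 had 3 counts in each of numbers 30 (0.765 CPM, the floor of that library) and 222 (0.28 CPM). It stood at 31.5, 39.9 and 28.9 CPM in the Rosa26 libraries 53, 54 and 50 and 41.4 CPM in the dNdK library 142. In muscle it had no count in 30 and 52 and 16.3 to 41.0 CPM in the other 5. Nudt22, a Nudix-family hydrolase of UDP-sugars, lies at chr19:6993019-6996103. It had no count in the same 2 libraries of each tissue. Where on, it was low throughout, at 2.91 to 6.38 CPM in aorta and 3.40 to 7.71 CPM in muscle, so its gap rests on 25 to 82 counts.

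The other 3 genes lie on chromosomes of their own, and each had its own pattern. Mocs2, on chromosome 13 (114818160 to 114829420), encodes both subunits of molybdopterin synthase, an enzyme of molybdenum cofactor synthesis. In aorta it stood at 91.4, 82.4 and 104 CPM in 53, 54 and 142 and at no more than 2 counts in 50, 30 and 222. In muscle it stood at 35.7, 32.7 and 52.0 CPM in 61, 53 and 142 and at no more than 2 counts in 50, 30, 52 and 66. Mocs2 was thus on in both genotypes of each tissue.

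Mcfd2, on chromosome 17 (87254443 to 87265947), encodes the partner of LMAN1 in a receptor that carries coagulation factors from the endoplasmic reticulum to the Golgi. In aorta it stood at 74.4 CPM in 50 and 51.5 CPM in 142, and at 0 to 0.645 CPM (at most 8 counts) in the other 4. In muscle it stood at 25.1, 33.5 and 31.9 CPM in 50, 66 and 142 and at 0.0762 to 0.28 CPM (1 to 3 counts) in the other 4. Cited2, on chromosome 10 (17723228 to 17725674), encodes a transcriptional coregulator that binds CBP and p300. In muscle Cited2 stood at 29.5 CPM in 30, 35.0 in 61, 18.3 in 52 and 25.3 in 66, and at no more than 2 counts in 50, 53 and 142. In aorta it was low even where on, at 3.83 CPM (15 counts) in 30 and 5.61 CPM (60 counts) in 222, with at most 4 counts in the other 4. Cited2 was the single gene of the 10 that was on in number 30.

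Libraries that share a number had the same states in both tissues. For each of the 10 genes the aorta and muscle libraries agreed at all 4 shared numbers (30, 50, 53 and 142). Number 30 had 1 gene on, number 50 had 6, number 53 had 8 and number 142 had 9, all but Cited2. The agreement held with prior counts of 0.5 and 5, with TMM scaling and with either single-strand column of counts. The rule itself set states against this number, and the match was known when the genes were listed, so it is a description. For the 38 pairs of an aorta and a muscle library with different numbers, the states agreed at 0 to 10 of the 10 genes, with a median of 6. Only 1 such pair agreed at all 10, aorta 54 with muscle 53. The matrix of agreement shows these counts.

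**Figure D3:**
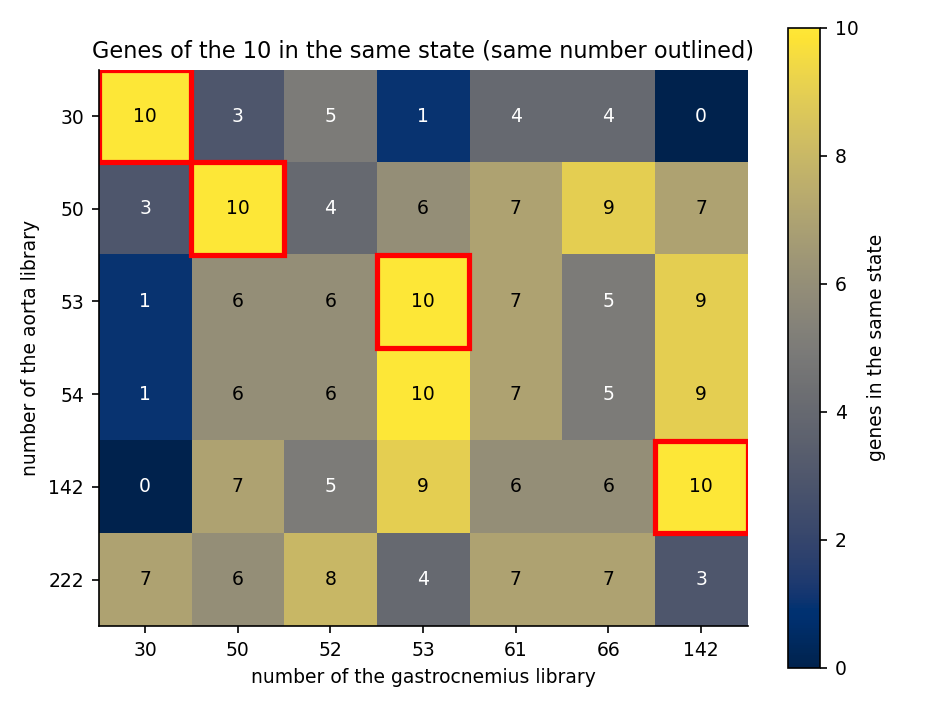
Number of the 10 genes in the same state for each aorta library (vertical axis) and each gastrocnemius library (horizontal axis), both by the number that ends the deposited name. Cells of the same number, outlined in red, all hold 10; the other 38 cells hold 0 to 10, with 10 reached by aorta 54 with gastrocnemius 53.

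Of the 12 other genes that met the rule, 10 agreed at all 4 shared numbers, and Slc15a5 and Mzb1 agreed at 1. Counted by pair of libraries, the 4 same-number pairs agreed at 10 to 11 of the 12. The 38 pairs with different numbers agreed at 2 to 12, with a median of 7. Aorta 30 with muscle 53 agreed at all 12, more than any same-number pair. H2-Aa, H2-Eb1, H2-T22, Mrps10 and Rpl34 were on in the libraries numbered 50 alone, in both tissues. H2-Aa and H2-Eb1, which encode chains of MHC class II, stood at 160 and 155 CPM in aorta number 50 and at 13.9 and 12.6 CPM in muscle number 50. In the other 5 aorta libraries they reached 1.37 and 0.205 CPM, and in the other 6 muscle libraries 0.294 and 0.0762 CPM. Of the 10 genes, none had this pattern. Over 10241 other genes, deviations from the tissue mean correlated at r = 0.210 to 0.245 across genes for the 4 same-number pairs. For the 38 other pairs r ran from −0.381 to 0.355, so some pairs with different numbers were more alike (genes are not independent replicates).

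A fit of tissue and number to the 8 libraries with shared numbers called 6 of 10998 genes (0.0546%) at an adjusted p under 0.05 (edgeR quasi-likelihood test, Benjamini-Hochberg over all genes tested). Of the 9 genes of the 10 that were tested, 4 were among them: Mcfd2, Mocs2, Abcc9 and Ppfibp1. The others were Calr and Il11ra1. Since the rule chose wide gaps between libraries and names this number, nothing is read from the 4. Cited2 did not pass the filter on low counts. Without number 30 the calls of Abcc9, Ppfibp1 and Mocs2 ended (edgeR adjusted p = 0.778, 0.948 and 0.103), and without number 50 they ended too (0.14, 0.14 and 0.129), while Mcfd2 was then not tested. Without number 53 those of Ppfibp1 and Mcfd2 ended (0.116 and 0.15). Without TMM scaling all 4 calls ended (edgeR adjusted p = 0.0661 to 0.0681), and likewise with the counts of the first strand alone (0.0575 to 0.0609). DESeq2 called all 9 tested genes, among 580 of the 10998 genes that passed the filter. Nothing is read from these 9 either, for the same reason.

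Among the 10 genes, all 5 pairs that share a chromosome had equal states in 13 of 13 libraries. These pairs lie 1.91 Mb (Aebp2 and Abcc9), 4.18 Mb (Abcc9 and Ppfibp1), 6.21 Mb (Aebp2 and Ppfibp1), 8.4 Mb (Mndal and Degs1) and 3.50 Mb (Nudt22 and Sdhaf2) apart. The 40 pairs on different chromosomes had equal states in 2 to 11 libraries, with a median of 8. Other genes that met the rule on these chromosomes had other states, but all except Slc15a5 lie much farther away than the pairs above. On chromosome 6, Slc15a5, whose start lies at −4.604 Mb from that of Abcc9, and Mkrn1 (start 39397804) differed from the set of 3. Cops8 and Agfg1 on chromosome 1 (starts 90602960 and 82839017) differed from Mndal and Degs1. On chromosome 17, H2-Aa, H2-Eb1, H2-T22 and Mrps10 (starts 34282744 to 47368887) differed from Mcfd2. Centred within tissues, log2 CPM correlated at r = 0.946 to 0.983 over the 13 libraries for the 5 pairs on a chromosome, and at −0.632 to 0.726 for the others. The libraries share depth and tissue make-up, and a number found in both tissues enters these values once for each.

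The genes most like each of the 10, among 10254 genes compared over the 13 libraries, were often on the same chromosome. Degs1 was most like Ifi204 (r = 0.963), of the p200 cluster, and Mndal was most like Igsf8 (r = 0.994), 1.54 Mb away. Igsf8 stood at 2.88, 4.92 and 2.68 CPM in aorta numbers 53, 54 and 142, with no count in the others. In muscle it stood at 1.22, 2.21 and 1.53 CPM in numbers 53, 52 and 142 and at most 0.085 CPM in the others. Igsf8, a low gene, thus followed the states of Mndal without meeting the gap rule. Nudt22 and Sdhaf2 were most like each other (r = 0.980) and next most like Peli3 (r = 0.946 and 0.937), on chromosome 19. Peli3 stood at 0 and 0.561 CPM in aorta numbers 30 and 222, against 4.27 to 8.11 CPM in the others. In muscle it had no count in numbers 30 and 52, against 1.60 to 6.67 CPM in the others. Abcc9, Aebp2 and Ppfibp1 were most like each other. For Cited2, Mocs2 and Mcfd2 the most alike genes lay on other chromosomes and r was lower: Fbxo17 at 0.817, Gna13 at 0.873 and Lamc3 at 0.826.

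The direct neighbours of the 10 genes mostly lacked such gaps. Of the 20 nearest genes with a level on either side, 2 had a gap of 3 or more in 1 tissue and 0 in both. Those were Ifi204, 90.1 kb from Mndal, with gaps of 3.25 in aorta and 2.82 in muscle, and Txlnb, 70.5 kb from Cited2, with 3.06 in aorta and 0.33 in muscle. Ifi204 stood at 2.67, 3.95 and 2.68 CPM in aorta numbers 53, 54 and 142 and at most 0.101 CPM in the others. In muscle it stood at 1.22, 1.33 and 1.90 CPM in numbers 53, 52 and 142, with no count in the others. Ifi204 thus followed the states of Mndal in both tissues. Txlnb stood at 30.2, 14.1 and 34.4 CPM in aorta numbers 53, 54 and 222, the libraries with 1330 CPM or more of heart muscle markers, and at 1.21 to 1.52 CPM in the other 3. The part of these markers in its gap was not tested. The median gap of the 20 was 0.48 in aorta and 0.47 in muscle, beside 0.49 and 0.51 over 11251 genes with a mean of at least 1 CPM. In muscle the neighbours Rep15, Arntl2 and Itga2 reached only 1.18, 0.883 and 0.991 CPM. Genes this low in a tissue could not show a gap of 3 there with a prior count of 2, here or in the intervals below. Trpt1, a tRNA phosphotransferase gene that lies 6 bp from Nudt22, stood at 22.2 to 49.2 CPM in aorta and 25.1 to 60.7 CPM in muscle. Cpsf7, a factor of mRNA cleavage that lies 13 bp from Sdhaf2, stood at 31.1 to 61.9 and 16.2 to 29.6 CPM. Between Mndal and Degs1 lay 36 genes with a level, of which 1 had a gap in either tissue, Rgs7. Between Aebp2 and Ppfibp1, Gys2 was 1 of 23, and between Nudt22 and Sdhaf2 Lgals12 and Fads3 were 2 of 47. In none of these intervals did a gene have a gap in both tissues.

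Partner genes mostly lacked such gaps. The 10 lists of partner genes held 120 detected genes beside the 10, of which 1 had a gap of 3 or more in aorta (Ifi204) and 0 in muscle. Their median gap was 0.48 in aorta and 0.58 in muscle, beside 0.59 and 0.54 over the 17053 genes detected. Detected means a count in any library, and genes near 0 CPM in a tissue could not show a gap of 3 there with a prior count of 2. Among these, Sptssb reached 0.28 CPM in aorta and 0 in muscle, Ifi214 0.117 and 0, and Tfap2b 0 and 0.34. Among genes of ceramide synthesis, Ormdl3, a regulator of its first enzyme, had a gap of 0.24 in aorta and 1.77 in muscle, and Sgpl1, the sphingosine phosphate lyase, 0.60 and 1.72. Both muscle gaps came from number 142, with Ormdl3 at 90.6 CPM against 17.8 to 26.4 and Sgpl1 at 49.0 against 8.47 to 14.7. That library also held 1760 CPM of fat markers, against at most 46.0 in the others, and their part in these gaps was not tested. The pore gene Kcnj11 and the receptor gene Abcc8, relatives of the Abcc9 channel, had gaps of 1.33 and 1.29 in aorta and 0.23 and 1.57 in muscle. In aorta numbers 53, 54 and 222, the libraries with most heart muscle markers, they stood at 10.5 to 13.1 and 2.77 to 3.74 CPM. In aorta numbers 50, 30 and 142 they stood at 2.04 to 6.41 and 0.765 to 1.01 CPM. The part of heart muscle markers in these gaps was not tested. Sdha, the flavoprotein served by Sdhaf2, stood at 2740 to 3800 CPM in aorta and 673 to 1360 CPM in muscle, with gaps of 0.16 and 0.29. Lman1, the partner of Mcfd2, stood at 79.9 to 130 CPM in aorta and 52.0 to 94.3 CPM in muscle. Within the p200 family, Ifi203, the neighbour of Mndal, stood at 31.7 to 64.3 CPM in aorta and 2.70 to 13.3 CPM in muscle.

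Ifi205 of the same family tracked Mndal in part, with 20.4, 16.6 and 21.7 CPM in aorta numbers 53, 54 and 142 and 1.02 to 3.14 CPM in the other 3. In muscle it stood at 4.27, 16.0 and 17.5 CPM in numbers 53, 52 and 142 and at 0.538 to 2.26 CPM in the other 4. Ifi205 was chosen after its values were seen. Genes with known differences between FVB and C57BL/6 behaved unequally. Of 12 detected genes on that list besides Mndal, H2-Aa and H2-Eb1 had gaps in both tissues and the other 10 in neither. Nnt, which encodes a mitochondrial transhydrogenase and carries a deletion in the C57BL/6J substrain, stood at 8.98 to 33.5 CPM in aorta and 36.4 to 138 CPM in muscle. Hc was at 0 in all 6 aorta libraries and reached 0.085 CPM in muscle. The files hold no allele calls, so the strain of origin at the 10 genes was not tested.

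Levels of the 10 genes were also compared between genotypes. The groups overlapped for all 10 in both tissues, where groups did not overlap for 17.2% of 11920 genes in aorta and 5.99% of 10491 in muscle. Each of the 10 had on and off libraries among the Rosa26 libraries of both tissues. Overlap and wide spread thus followed largely from the choice of genes, and nothing is read from these counts or from the calls below. In aorta 0 of the 10 were called, against 1 of all genes tested (0.00839%), and 713 genes had an unadjusted p under 0.05 (0 of the 10). In muscle 0 of the 10 and 0 of all genes (0%) were called by edgeR, where 792 genes had an unadjusted p under 0.05 (0 of the 10). DESeq2 called 13 genes in aorta and 7 in muscle. These held 0 of the 9 genes of the 10 that it gave an adjusted p in aorta (Mcfd2 had none) and 0 of the 10 in muscle. Log2 fold changes of dNdK over Rosa26 ran from −1.31 (Nudt22, SE 1.44) to 1.80 (Cited2, SE 1.88) in aorta. In muscle they ran from −0.22 (Cited2, SE 1.62) to 1.81 (Mndal, SE 1.62). The median over the 10 was 0.40 in both tissues, beside −0.05 and 0.03 over all genes tested. Abcc9, Aebp2 and Ppfibp1 shared their states, as did Mndal with Degs1 and Nudt22 with Sdhaf2. The 10 values are therefore not independent, and nothing is read from their median.

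In the mean levels the spread was wide beside the difference, which the choice of genes with wide gaps within a tissue made likely. Mocs2 stood at 41.2 ± 47.8 CPM (SD, n = 4) in Rosa26 aorta and 55.2 ± 77.8 CPM (n = 2) in dNdK aorta, scaled by TMM (log2 fold change 0.43, SE 2.06, edgeR adjusted p = 0.963). Degs1, whose highest muscle level was in number 142, the library rich in fat markers, stood at 3.35 ± 6.36 CPM (n = 4) in Rosa26 muscle and 11.2 ± 12.1 CPM (n = 3) in dNdK muscle (log2 fold change 1.73, SE 1.54, edgeR adjusted p = 0.826). Abcc9, Aebp2 and Ppfibp1 were on in all dNdK libraries and in 3 of the 4 Rosa26 libraries of each tissue. Sdhaf2 and Nudt22 were on in 1 of 2 dNdK and 3 of 4 Rosa26 libraries in aorta, and in 2 of 3 and 3 of 4 in muscle. Standard errors of 0.81 to 2.11 in log2 leave room for changes of several fold at each of these genes. The partner lists gave 0 calls of 106 genes tested in aorta and 0 of 98 in muscle by edgeR, with 8 and 11 at an unadjusted p under 0.05 and 0 by DESeq2. The plot of genotype effects shows all of these estimates.

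**Figure D4:**
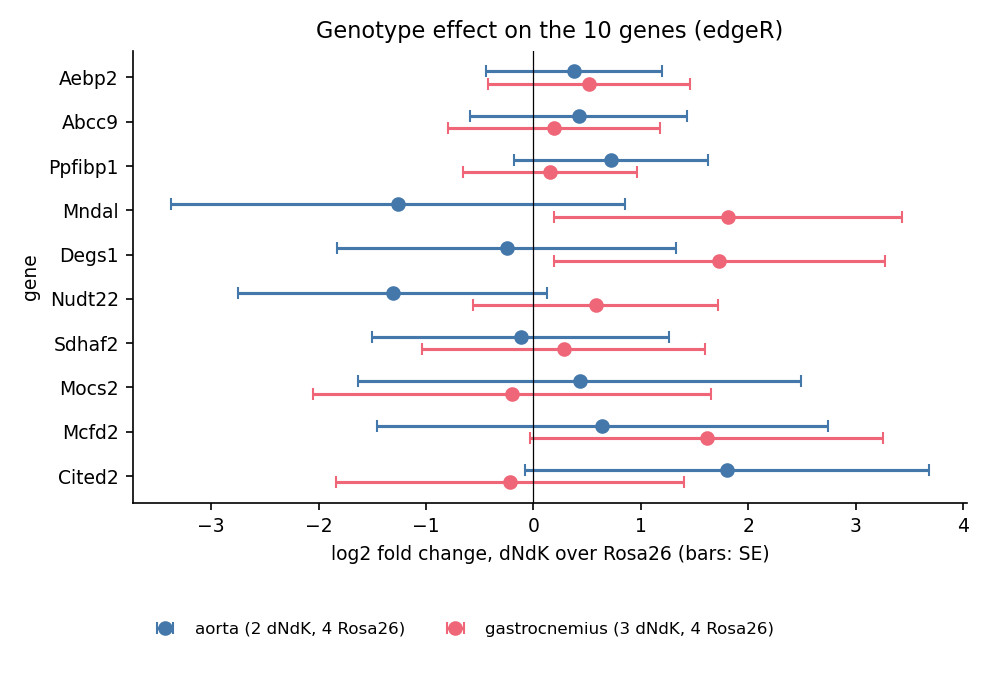
Log2 fold change of dNdK over Rosa26 (horizontal axis, points, with SE as bars) for the 10 genes (vertical axis) from the edgeR fits in aorta (blue) and gastrocnemius (red). The estimates lie between −1.31 and 1.81, with SE of 0.81 to 2.11, and none passed the test.

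Levels between tissues were compared in the Rosa26 libraries and then within a number. Over all genes, 6462 of 11058 (58.4%) were called between muscle and aorta and 52.9% had groups that did not overlap. Of the 7 genes of the 10 that passed the filter, 0 were called and 0 had groups apart. Each of the 7 had on and off libraries among the Rosa26 libraries of both tissues. Overlap and wide spread thus followed from the choice of genes, and nothing is read from these counts. Abcc9 stood at 17.2 ± 12.4 CPM in aorta and 107 ± 70.8 CPM in muscle (TMM-scaled, SD, n = 4 each; log2 fold change 2.57, SE 1.15, edgeR adjusted p = 0.078). With the deposited number as a replicate block, over numbers 30, 50 and 53, it was called (log2 fold change 2.56, edgeR adjusted p = 0.000258). It was also called without muscle Rosa26 4, number 30 (3.00, edgeR adjusted p = 0.013). That fit drops the muscle library where Abcc9 was off (0.466 CPM) and keeps the aorta library of that number (0 CPM). Nothing is read from this call. Degs1 was not called with all libraries (−1.77, SE 1.48, adjusted p = 0.325). Without muscle Rosa26 3, number 53, the muscle library where it was on, it was (−6.26, edgeR adjusted p = 0.0174); the muscle libraries left held 0 to 3 counts each, so the size of that value depends on the prior count.

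Within a shared number, where a gene was on in both tissues, some genes kept 1 direction. Abcc9 was 2.47-fold to 3.82-fold higher in muscle at numbers 50, 53 and 142, and 3.72-fold to 6.82-fold after TMM scaling. Cited2 could be compared at number 30 alone, so its direction could not vary. It was 7.72-fold higher in muscle there, and 12.6-fold after TMM scaling, resting on 15 counts in the shallowest aorta library. Mndal stood in muscle at 0.108 and 0.265 of its aorta level in CPM at numbers 53 and 142, Mocs2 at 0.358 and 0.499 at the same numbers, and Mcfd2 at 0.338 and 0.618 at numbers 50 and 142. After TMM scaling these ratios were 0.193 and 0.376, 0.639 and 0.707, and 0.688 and 0.876, still below 1. For Aebp2, Degs1, Nudt22, Ppfibp1 and Sdhaf2 the ratio lay on both sides of 1 over the numbers or turned with the scaling. Scaling by TMM or not moved the median log2 difference of all genes by −0.88, and the share of called genes that were higher in muscle was 47% with it and 17.2% without. The scatter of aorta against muscle levels shows each pair.

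**Figure D5:**
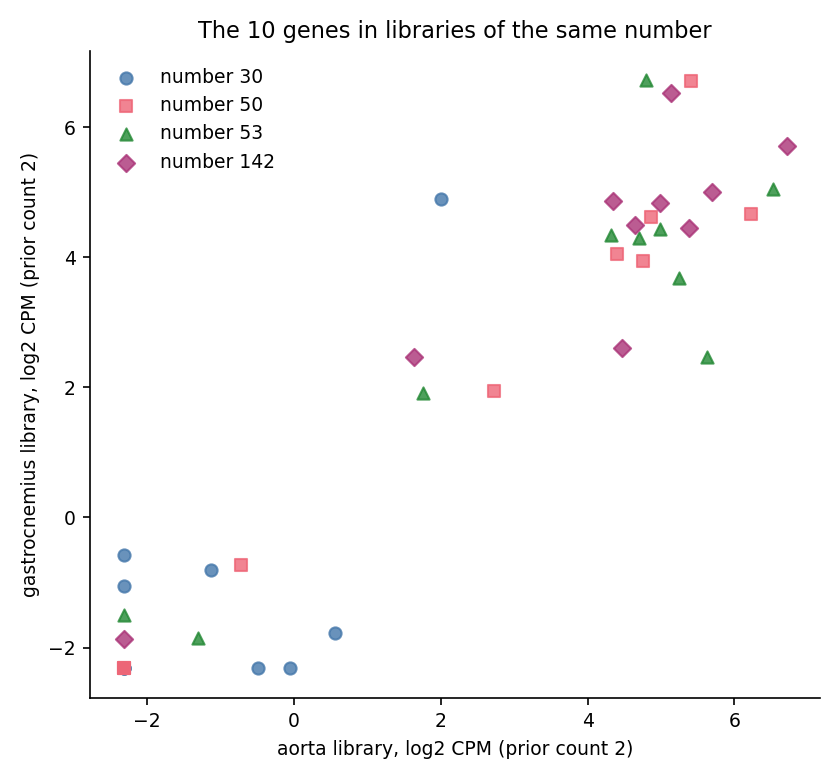
Log2 CPM (prior count 2) of the 10 genes in the aorta library (horizontal axis) and the gastrocnemius library (vertical axis) of the same deposited number; each point is 1 gene at 1 of the 4 shared numbers. Points fall into a low and a high cloud, with no gene high in 1 tissue and low in the other at the same number.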

How the data were processed

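Libraries of 6 aorta and 7 gastrocnemius samples were made with an amplicon panel from 10 ng of RNA and read on an Ion Torrent instrument, per the labels' protocols. The deposited values are raw read counts per gene, 1 table per library. STAR 2.5.2b, edgeR 3.28.1, limma 3.42.2 and the builds mm10 and GRCm38.p6 are named in the submitters' processing notes. Of the 3 deposited count columns, the one over both strands was used, since 46.34% to 49.33% of reads fell on the first strand. Overlapping genes and reads from near-identical copies can therefore not be separated. Lines of unmapped, multimapping, featureless and ambiguous reads were left out, and genes took 86.66% to 91.42% of each table.

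The members, gene lists and comparisons were chosen with earlier results of these data known. Groups come from the titles. Counts were fitted in R 4.3.3 with edgeR 4.0.16 (filterByExpr with min.count 10, TMM, quasi-likelihood test, Benjamini-Hochberg over all genes tested, threshold 0.05). Each genotype fit held the libraries of 1 tissue. SE was derived from the fold change and the F statistic of a gene. DESeq2 1.42.0 was an alternative. Others were no TMM scaling, no filter, single-strand columns, left-out libraries, 1 fit of all 13 libraries, a replicate block, and for the gap rule other prior counts and gap sizes. The scripts were tested on simulated counts with known changes.

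Named genes are the 10 members, for each the 2 most alike genes (highest r over 13 libraries of centred log2 CPM), the nearest gene with a level on each side, other genes meeting the gap rule, and up to 2 partners per list by gap. Some of these are only counted. Kcnj8, Kcnj11 and Ifi203 fall under the neighbour or partner parts, and Sdha, Lman1, Nnt, Hc, Ifi205 and genes named at thresholds or in intervals were added after their values were seen. RefSeq coordinates matched 19827 of 19838 genes and promoters all 10 members. The deposited number was used as a candidate pairing of libraries across tissues, which the labels do not state and r does not settle. Every same-number pair had r of at least 0.210, ranking 7 to 11 of 42 pairs, but pairs with different numbers ranked above them. The highest of these, aorta 50 with muscle 52, had r = 0.355.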

Additional observations from a re-analysis of the deposited data

Results flagged for a closer look

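In 11 of 20 groups of 4 Rosa26 libraries (10 genes in 2 tissues), 1 library lay far from the other 3, by a gap that took up most of the range of the group. Chance gives such a library in about 1 of 20 groups, but these genes were chosen for wide gaps, so the count is not evidence. In aorta Rosa26 4, numbered 30, Abcc9 was at 0 CPM (27.5 to 42.3 in the other 3), Aebp2 at 0.51 (19.7 to 21.0), Ppfibp1 at 0.255 (25.8 to 30.3) and Sdhaf2 at 0.765 (28.9 to 39.9). In muscle Rosa26 4, also numbered 30, Abcc9 was at 0.466 CPM (103 to 105 in the other 3), Aebp2 at 0 (16.4 to 20.1), Ppfibp1 at 0.373 (15.2 to 22.9), Sdhaf2 at 0 (16.3 to 24.3) and Nudt22 at 0 (3.40 to 3.63). The remaining pair stood above the others. Mcfd2 was at 25.1 CPM in muscle Rosa26 1, numbered 50, against 0.0762 to 0.28, and Mndal at 5.33 CPM in muscle Rosa26 3, numbered 53, against 0 in the other 3.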

How the results depend on the processing

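The limits are few libraries, wide states and unstated runs. The 2 dNdK aorta libraries set every aorta estimate, and no alternative that gave a value called any of the 10 genes between genotypes (lowest adjusted p = 0.414 of 125 values in aorta and 0.527 of 135 in muscle; some fits gave none for Cited2, Mcfd2, Degs1, Mndal or Mocs2), where wide spread allows no statement that they are alike. States agreed at all 4 numbers for 10 of 10 genes with other prior counts, TMM scaling and single-strand columns, the alternatives run for them. Genes meeting the gap rule numbered 21, and 68 with a prior count of 0.5, 75 with a gap of 2, 13 with a gap of 4 and 308 by the highest minus the lowest library. Leaving out a library gave 16 to 25. In aorta the count of 1 gene called became 13 with DESeq2, 0 with either single-strand column or all 13 libraries in 1 fit, and 0 to 1 without a library (0 without Rosa26 1, Rosa26 2 or dNdK 1). It was 140 with a replicate block on the title numbers. Deviations from the group mean correlated between same-numbered libraries at r = 0.219, −0.041 and 0.004 in muscle and at −0.380 and 0.228 in aorta. The 2 dNdK aorta libraries have mirror-image deviations from their mean, so the sign of the aorta values cannot show pairing. In muscle the count of 0 was 7 with DESeq2, 0 with that block and 0 to 3 without a library (3 without dNdK 1). The count of 6 genes called for the number became 580 with DESeq2, 1 without TMM scaling, 48 without a filter, 2 and 3 with the single-strand columns, and 1 to 25 without a number (3 without 53, 1 without 50, 2 without 30 and 25 without 142). The cause of these shifts was not tested. Between tissues, the replicate block on the deposited number gave 6186 calls against 6462, and changed the call of no tested gene of the 10 but Abcc9.

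Some uncalled estimates changed sign. Over the fits that leave out 1 library, where a lone dNdK aorta library is assumed to vary like the others, aorta genotype estimates ran from −3.98 to 0.71 for Degs1, −6.26 to 0.88 for Sdhaf2, −7.6 to 1.43 for Mocs2, −6.37 to 1.64 for Mcfd2 and −6.11 to 2.76 for Cited2. In muscle they ran from −0.86 to 0.48 for Cited2, −0.23 to 0.38 for Abcc9, −0.75 to 0.85 for Sdhaf2, −0.26 to 0.45 for Ppfibp1, −7.14 to 0.37 for Mocs2 and −0.17 to 1.12 for Nudt22. Between tissues they ran from −1.06 to 0.23 for Mocs2, −0.15 to 0.63 for Sdhaf2 and −0.03 to 0.72 for Nudt22. With the block, Mocs2 was −2.63 in aorta, and in muscle Abcc9 was −0.24, Cited2 1.5, Sdhaf2 −0.88, Ppfibp1 −0.26 and Nudt22 −0.38. In muscle Mocs2 was 0.04 without TMM scaling and 0.27 with the last count column, and Sdhaf2 was −0.05 with the other. Between tissues without TMM scaling Sdhaf2 was −0.73, Aebp2 −0.17, Ppfibp1 −0.55 and Nudt22 −0.63.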
